A study of Arabidopsis thaliana with 10 samples.

Results

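FBL17 is an F-box protein of Arabidopsis thaliana, and its transcript was followed through the release of synchronised cells from a block of DNA replication. The gene, locus AT3G54650, was found by its name: 1 probe set named FBL17 and no other gene, out of 22746 probe sets without the control probe sets. The probe set passed the filter on mean signal, as did 13647 in all. The cells were MM2d, a fast-dividing suspension line grown in continuous darkness in liquid medium with sucrose, auxin (NAA) and kinetin. All 10 samples came from 1 treatment: an early stationary culture, 7 days after subculture, was diluted into fresh medium with 4.16 ug/ml aphidicolin, an inhibitor of replicative DNA polymerases, held for 24 h, and washed free of the drug through a nylon net. Samples were taken at 0, 2, 4, 6, 8, 10, 12, 14, 16 and 19 h after the wash, with 1 ATH1 array and no replicate for each time. No unblocked culture was among the samples, and every sample, the 0 h sample included, had been through the block and the wash.

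F-box proteins are the part of an SCF ubiquitin ligase that picks the substrate, joined through an SKP1-like adaptor to a cullin scaffold. FBL17 carries leucine-rich repeats and is known for targeting inhibitors of cyclin-dependent kinases of the KRP family for breakdown, which frees the kinase that drives entry into S phase. It was described in the male germline, where it is needed for the division that makes the sperm cells, and it also acts in dividing cells of the plant body, where its transcription is known to depend on E2F factors and to be tied to S phase.

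The values are MAS5 signals, an intensity for each probe set on a linear scale, rescaled here so that the trimmed mean of each array was 100. The FBL17 signal was 483 at 0 h, 547 at 2 h and 475 at 4 h. It was 235 at 6 h, 242 at 8 h, 258 at 10 h and 227 at 12 h. At the last 3 times, 14, 16 and 19 h, it was 261, 358 and 373. The gene thus stood at 3 levels: high while the cells left the block, low from 6 h to 14 h, and in between at 16 h and 19 h. The 3 sets of times did not overlap, but they were read off these same values, so this is a description and not a test. In a culture, fewer cells with the transcript and less transcript per cell cannot be told apart.

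**Figure D1:**
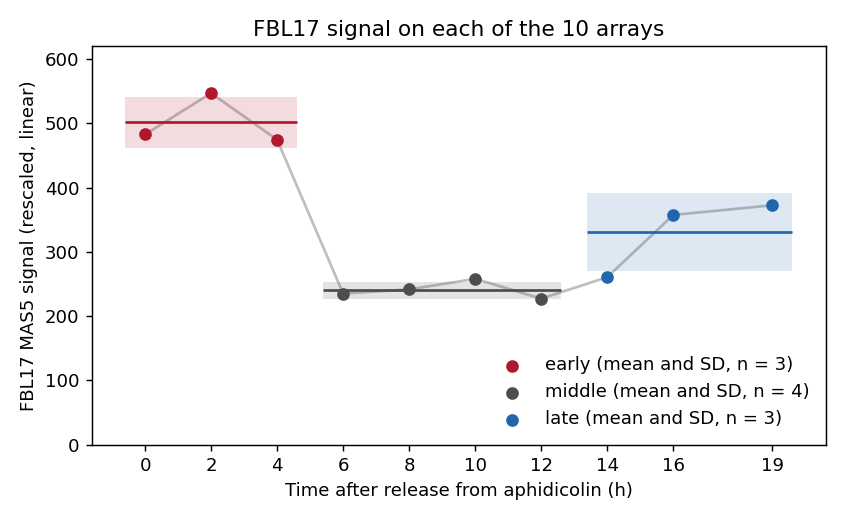
FBL17 signal (rescaled MAS5 signal, linear axis from 0) against the time after release in h; each point is 1 array, lines and bands are the mean and SD of the arrays in each window. The early arrays lie between 475 and 547, the middle arrays between 227 and 258, and the late arrays between 261 and 373.

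The transcript was well measured at every time. At its lowest, at 12 h, 86.6% of all probe sets had a lower signal on the same array, and at its highest, at 2 h, 94.8% did. Its mean over the course, 346, was above that of 85.9% of tested probe sets. No FBL17 value was near the floor of 12.1 that was set for low signals, so the folds below are not bounds. From the highest to the lowest time the signal spanned 1.27 log2 units, or 2.41-fold.

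Ranked by level, the order of times was 2, 0, 4, 19, 16, 14, 10, 8, 6 and 12 h. The spread was judged from the scatter of FBL17 around its window means, a residual SD of 0.17 log2 units, since no time had a replicate. Of the gaps between neighbours in this order, 2 were the largest: 0.35 between 4 h and 19 h (2.06 of that SD) and 0.46 between 16 h and 14 h (2.68). The times were sorted by these same values, and the second gap lies inside the late window that enters the SD. Both gaps are thus a description and not a test. The gap from 2 h to 0 h, 0.18, was about as large as the SD. The other gaps were between 0.01 and 0.10, so the order within 0 h and 4 h, within 16 h and 19 h, and within 6 h to 14 h is not resolved. Most tested probe sets scattered more around their windows, 77.0% of them, with a median SD of 0.25.

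The fall lay almost wholly in 1 interval. Between 4 h and 6 h FBL17 went from 475 to 235, a difference of -1.01 log2 units or 2.02-fold, with 1 array on each side and so no test. Of the 1.22 log2 units lost from 2 h to 6 h, 83.2% came after 4 h. A downward step of 1 log2 unit or more over that interval was seen in 2.10% of tested probe sets, and 2.04% had a larger downward step than FBL17. The largest upward step was from 261 at 14 h to 358 at 16 h, by 0.46 log2 units or 1.37-fold, which 4.91% of tested probe sets exceeded. The other 7 steps lay between -0.20 and 0.20, and between 21.8% and 43.0% of tested probe sets moved further the same way in each.

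**Figure D2:**
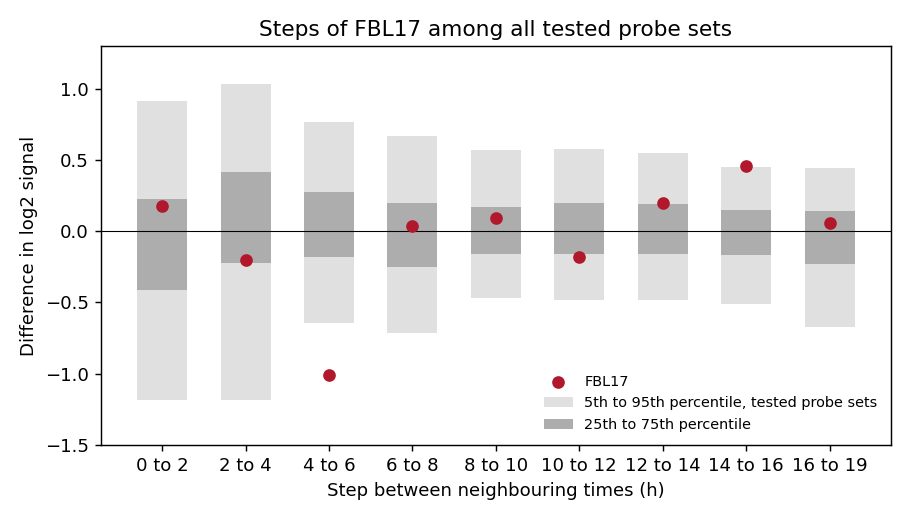
Difference in log2 signal over each interval between neighbouring times (h), for FBL17 (points) and for all 13647 tested probe sets (bars from the 5th to the 95th and the 25th to the 75th percentile). FBL17 lies outside the wider bar in the steps from 4 to 6 h, with -1.01, and from 14 to 16 h, with 0.46.

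For the change in FBL17 after the cells had left the block, the middle window (6, 8, 10 and 12 h) was set against the early window (0, 2 and 4 h). The mean signal was 502 ± 39.7 (SD, n = 3 times) early and 241 ± 13.1 (SD, n = 4 times) in the middle, and each middle value was below each early value. FBL17 fell by 1.06 log2 units (SE 0.13, 95% interval -1.36 to -0.76), or 2.08-fold, with an adjusted p = 0.0137 by limma over all tested probe sets. It had the 6th lowest p of all, and the median difference of all tested probe sets was 0.07. In this comparison 0.608% of tested probe sets were called lower, and windows apart in that direction were seen in 5.61%. Windows apart in the other direction were seen in 10.5%. An exact two-sided permutation test of the absolute difference of means gave p = 0.0286, the smallest that 3 against 4 samples allow. Times of 1 culture stand in for replicates here and neighbouring times are alike, so these p-values measure only the scatter between these samples.

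The call did not hold in every setting. The difference lay between -1.18 and -0.98 in every setting other than that with 6 h counted as early. Without the 8, 10 or 12 h array the differences were -1.06, -1.09 and -1.03, and the adjusted p was 0.0536, 0.0549 and 0.0559 (limma). Mean correlations of an array with the remaining ones were 0.955 at 0 h and 0.931 at 2 h, and between 0.957 and 0.969 at all later times. Without both of them the difference was -0.98 (adjusted p = 0.0530, limma), with 4 h as the only early time. With 6 h counted as early it was -0.78 (adjusted p = 0.242, limma), and the 6 h array already held the low level.

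**Figure D3:**
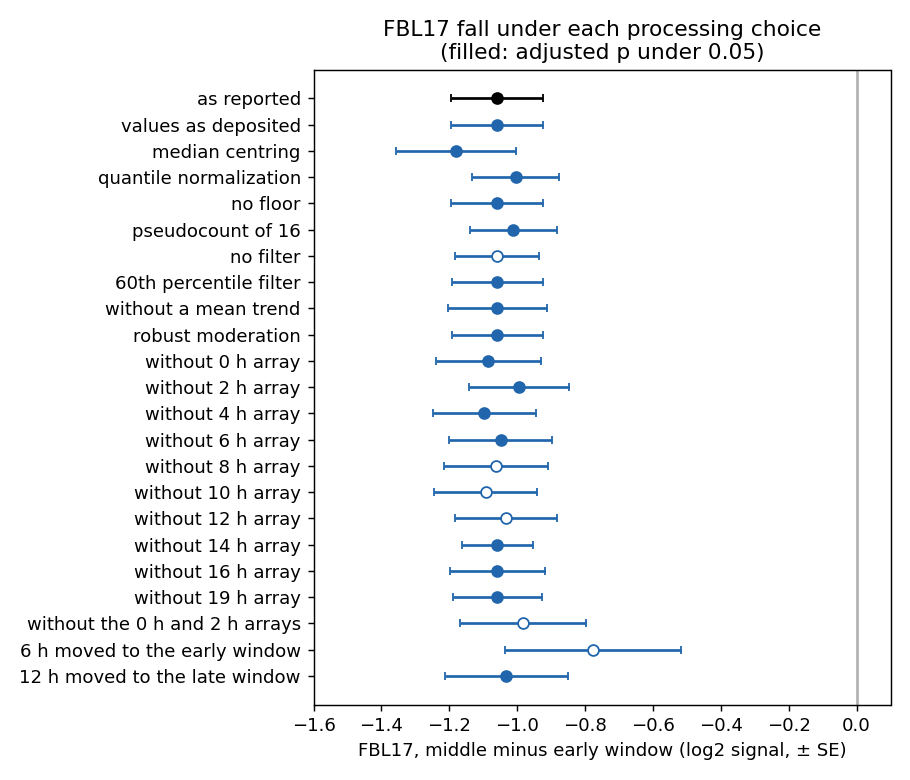
FBL17 difference between the middle and early windows (log2 signal, points with SE) as reported and under each of 22 alternatives; filled points have an adjusted p under 0.05. All differences lie between -1.18 and -0.78, and 16 of the 22 alternatives kept the call.

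In the late window (14, 16 and 19 h) the mean signal was 330 ± 60.7 (SD, n = 3 times), with the widest scatter of the 3 windows, and 14 h was still at the low level. The late arrays also stood apart in the 3′ to 5′ log2 ratio of the GAPDH control probe sets, at most 0.11 against at least 0.14 on every earlier array, and its part in the late values of FBL17 was not tested. Against the early window FBL17 was lower in every late sample, by 0.62 log2 units (difference -0.62, SE 0.14) or 1.53-fold, with an adjusted p = 0.0417 by limma. Here 1.80% of tested probe sets were called lower, and 9.63% had windows apart in that direction and 16.8% in the other. The exact two-sided permutation test gave p = 0.100, the smallest possible with 3 against 3. This call was lost without any 1 of the 2, 8, 10, 12, 14, 16 and 19 h arrays (limma, adjusted p 0.0585 to 0.127), with differences from -0.71 to -0.46 over all arrays left out in turn.

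Against the middle window the late window was higher by 0.44 log2 units (SE 0.13), or 1.36-fold, and this did not pass over all probe sets (limma, adjusted p = 0.856, unadjusted p = 0.00761). Every late value was above every middle value, but only just: 261 at 14 h against 258 at 10 h. In that direction 6.16% of tested probe sets had windows apart, and 4.94% in the other. Higher in the late window, limma called 0% of tested probe sets, against 5.03% at an unadjusted p under 0.05 in either direction. The exact two-sided permutation test gave p = 0.0286, again the smallest possible. The window difference is made by the last 2 times. A split chosen after the values were seen, with 14 h counted as low, put 16 h and 19 h at 0.58 log2 units or 1.49-fold above the times from 6 h to 14 h, and at -0.46 relative to the first 3 times. That is 56.0% of the fall on the log2 scale, and 1.92% of tested probe sets had a larger difference of this kind. The 5 low times had an SD of 0.09.

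Over the whole course, the smooth curve fitted by limma, a spline with 4 degrees of freedom, had a range of 1.29 log2 units for FBL17 and did not pass (moderated F test, adjusted p = 0.0683, unadjusted p = 0.00510). By this test 5.57% of tested probe sets were called. The curve described the gene less closely than the 3 windows did: FBL17 lay 0.41 log2 units below it at 6 h (residual -0.41) and its residual SD was 0.27, against 0.17 around the windows. The call passed without the 0 h array (adjusted p = 0.0153, limma) and without the 6 h array (adjusted p = 0.0339, limma).

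The high, low and intermediate order of FBL17 was rare among the other probe sets. The 3 early times lay above all 7 later ones in 3.76% of tested probe sets. Those in which, in addition, 16 h and 19 h lay above 6 h to 14 h were 0.191%, or 26 probe sets with FBL17 among them. This pattern was read off FBL17 itself, so the counts only describe how many others share it. Of the 26, 16 named 1 gene and 5 had a symbol: FBL17, BIGYIN, ACLA-1, Z-ISO and SDRB, the last chosen after its values were seen. FBL17 had the largest step from 4 h to 6 h among these 5, -1.01 against -0.21 to -0.43. Among all 26 it ranked only 9th by the size of this fall, the largest being -2.99. By the difference between the first 3 times and 6 h to 14 h it ranked 12th of the 26.

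The genes most like FBL17 were then taken from the 1025 other tested probe sets with 1 gene and a symbol, by Pearson's r of log2 signal over the 10 arrays. All points share arrays and 1 culture, so r is given as a description. The nearest were BIGYIN, which acts in the fission of mitochondria and peroxisomes (r = 0.93, Spearman's rho = 0.93), ACLA-1, which takes part in making cytosolic acetyl-CoA (r = 0.93, rho = 0.87), and Z-ISO, a carotenoid isomerase (r = 0.90, rho = 0.93). BIGYIN stood at 356, 383 and 292 at the first 3 times, between 230 and 245 from 6 h to 14 h, and at 264 and 272 at 16 h and 19 h. ACLA-1 stood at 503, 592 and 459, then between 329 and 367, then at 370 and 422. Both courses had the same order of levels as FBL17 at a smaller size, with middle minus early differences of -0.53 and -0.57 against -1.06. For ACLA-1, though, 370 at 16 h was only just above 367 at 12 h, so its level at 16 h is not resolved from the low times.

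The next 9 were ATG3, an enzyme that conjugates ATG8 in autophagy (r = 0.85), CCT2, of phosphatidylcholine synthesis (0.85), VPS20.1, of the ESCRT complexes (0.84), NTMC2T6.1 (0.84), DER2.1, a derlin of the endoplasmic reticulum (0.83), RALFL31, a RALF-like peptide (0.83), PHOS34 (0.81), LigB (0.80) and PUB25, a U-box ubiquitin ligase (0.80). Of these 12 genes, ACLA-1 and LigB were called lower in the middle window (limma, adjusted p = 0.0439 and 0.0384). As likeness to FBL17 over these arrays favours such genes, nothing is read from that number. Most of the 12 differed from FBL17 in when the fall came, as read from 1 array each at 2, 4 and 6 h. The 2 h array, from which the fall is counted, was the one least like the rest (mean correlation 0.931). Probe sets without a symbol were not compared in this way. In 11 of the 12 genes between 27.7% and 60.7% of the fall from 2 h to 6 h lay after 4 h, against 83.2% for FBL17. For PUB25 the share was at least 65.4%, since its 6 h value was at the floor. CCT2, with 3 of its 10 values at the floor, and PUB25, with 1, were the 2 of 12 with a larger downward step than FBL17 from 4 h to 6 h, with differences of -1.20 for CCT2 and of at least 1.10 in size for PUB25, whose 6 h value was at the floor (-1.10 against the floor).

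The list depended on which arrays were used. BIGYIN, ACLA-1 and Z-ISO were among the nearest 12 in all 20 settings run, PUB25 in 6 and LigB in 7. Without the 2 h array, 4 of the 12 were kept, and 5 when the 0 h array was left out as well. Of all 13646 other tested probe sets, 21 had r above 0.9 (0.154%), of which 3 had a symbol, 10 a locus code only and 7 no gene listed. The median r over all tested probe sets was -0.17.

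**Figure D4:**
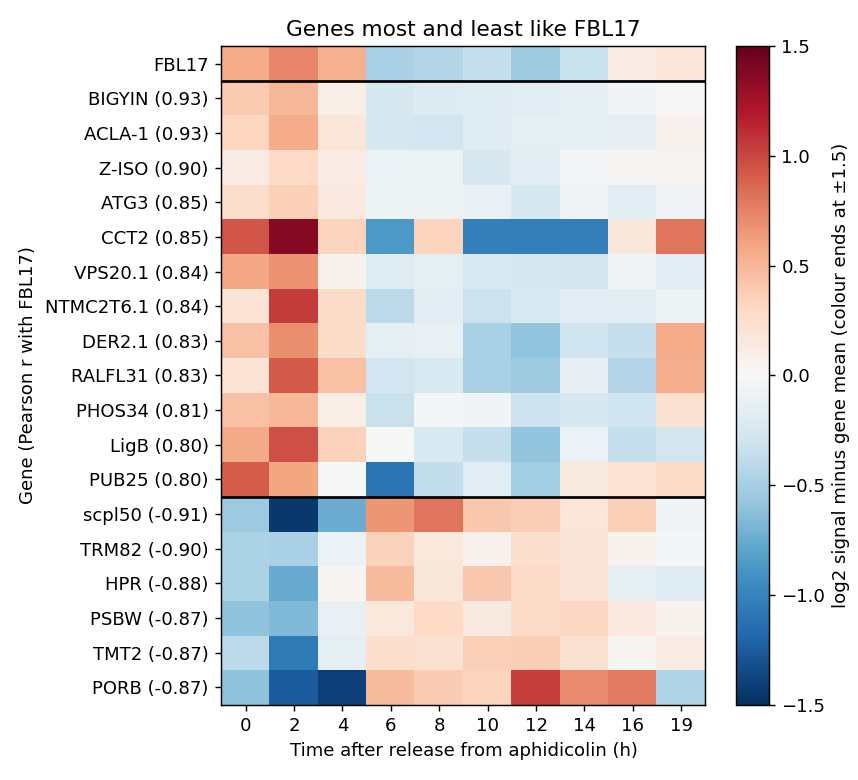
Log2 signal minus each gene's mean over the 10 arrays (colour) by time after release in h, with FBL17 in the top row. Below it are the 12 genes with the highest and the 6 with the lowest Pearson's r with it, among those with a symbol (r in brackets). The columns for 0 h and 2 h are high in the upper rows and low in the lower rows, and FBL17 keeps its high level at 4 h, where many of the 12 are already lower.

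The 6 genes with the most opposite course were taken from the same 1025 probe sets with 1 gene and a symbol. Of all 13646 other tested probe sets, 19 had r below -0.9 (0.139%). The 6 were scpl50, a carboxypeptidase-like protein (r = -0.91), TRM82, of tRNA modification (-0.90), HPR, hydroxypyruvate reductase of photorespiration (-0.88), PSBW, of photosystem II (-0.87), TMT2, a vacuolar sugar transporter (-0.87), and PORB, which makes chlorophyllide (-0.87). scpl50 went from 36.0, 19.3 and 31.5 at the first 3 times to 83.6 at 6 h and 91.9 at 8 h. Its step from 4 h to 6 h, 1.41 log2 units, was the reverse of that of FBL17 in the same interval. Of these 6, scpl50 and PORB were called higher in the middle window (limma, adjusted p = 0.0211 and 0.0430), a direction that their choice by r favours.

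FBL17 works with other cell cycle genes, and few of those listed had a probe set of their own named in the annotation. Of 16 CDK inhibitors, 5 had one and 2 were tested. The KRP inhibitors, its known targets, were not analysed here. Nor were any of 11 genes of the SCF ligase and its regulators, 9 of E2F, DP and retinoblastoma, and 20 CDKs and cyclins.

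SIM, SIAMESE, a CDK inhibitor of another family that promotes endoreplication, had a signal of 250 at 0 h, of 88.5 and 112 over the next 2 times and of 200 at 6 h. From 4 h to 6 h it moved up by 0.84 log2 units while FBL17 moved down, each with 1 array a side. In the window comparison its difference, 0.50 (SE 0.28), was not called (limma, adjusted p = 0.325). The related AT5G40460 (SMR6) varied between 32.4 and 80.2 with a difference of -0.02. The other 3 inhibitors with a probe set, SMR2, SMR3 and SMR8, did not exceed 21.8 at any time.

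Of 23 genes of origin licensing and replication, 2 had a probe set that the annotation named with that gene only, and both were tested. AT1G07270 (CDC6B), a homologue of the loading factor CDC6, peaked at 2 h, with a signal of 130, and had its lowest value, 28.6, at 10 h. Its middle minus early difference was larger than that of FBL17, -1.20 (SE 0.31), and was not called (limma, adjusted p = 0.0722). Over the times 4, 6 and 8 h it had signals of 71.3, 60.9 and 42.7, and its largest downward step lay between 2 h and 4 h (-0.87 log2 units) and not between 4 h and 6 h (-0.23). It was at 58.7 at 16 h but 32.9 at 19 h. PRL (MCM7), of the replicative helicase, stayed between 370 and 632 with a difference of 0.15 (limma, adjusted p = 0.562).

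The mitosis genes had another course. All 9 listed were tested, and all 9 were called in the time course (limma), where 5.57% of all tested probe sets were. In middle minus early, 0 of the 9 were called (limma), where 1.13% of all tested probe sets were called in either direction. An unadjusted p under 0.05 (limma) was seen for 8 of the 9, and for 21.7% of all tested probe sets. Of these 8, HTR12 was lower in the middle window (-0.65) and the rest were higher. UBC19 was the gene left out (limma, unadjusted p = 0.121). Earlier results on these arrays were known when the list was chosen. AUR1, an Aurora kinase, stood at 76.2 at 4 h, 129 at 6 h, 325 at 8 h and 555 at 10 h. FBL17 had thus reached its low level at 6 h, and AUR1 was at its highest 4 h later. At 16 h and 19 h, where FBL17 was up by 0.58 over 6 h to 14 h, all 9 mitosis genes were lower than over those times, by differences of -0.92 to -0.10, as were 50.4% of all tested probe sets. AUR1 was then at 305 and 203.

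HTR12, the centromeric histone H3 variant, was the exception among the 9 in its first hours. It stood at 82.0, 93.9 and 84.9 at 0, 2 and 4 h, and at 64.3 at 6 h, so its early course resembled that of FBL17 with a smaller step. Its later course did not: it reached 29.4 at 19 h, its lowest value, where FBL17 stood at 373. Its r with FBL17 was 0.49, and those of the other 8 genes were between -0.81 and -0.51.

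**Figure D5:**
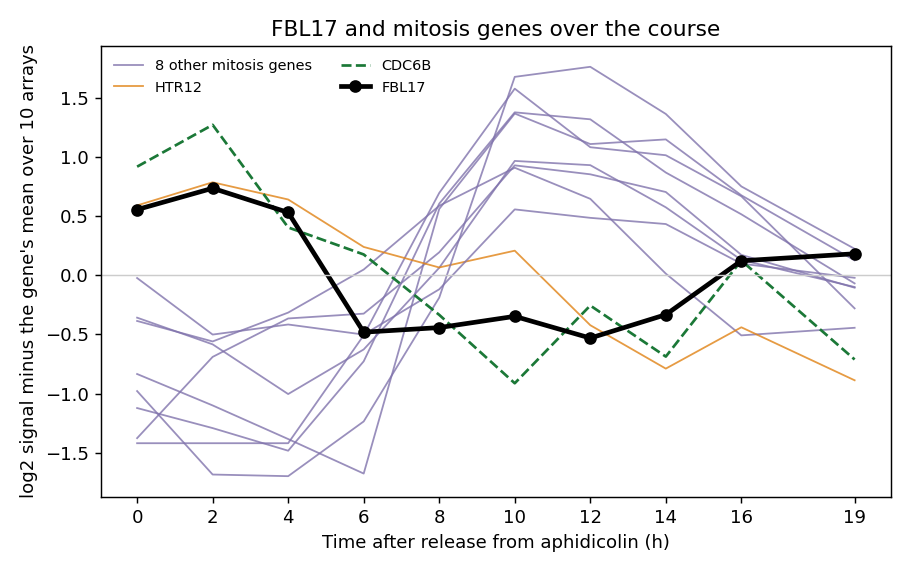
Log2 signal minus each gene's mean over the 10 arrays against the time after release in h, for FBL17 (thick line), 9 mitosis genes (HTR12 apart) and CDC6B (dashed). FBL17 drops between 4 h and 6 h, before the mitosis genes other than HTR12 peak at 10 h or 12 h, and it is higher again at 16 h and 19 h while they decline.

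Among other F-box proteins, 3 of 15 had a probe set that the annotation named with that gene only, and 1 was tested. SLY1, which targets the DELLA repressors of gibberellin response, varied between 86.7 and 148 with a middle minus early difference of 0.31 (limma, adjusted p = 0.320). SKP2A, also known as a cell cycle F-box protein, was at the floor on 8 of 10 arrays and reached 37.7 at 0 h. UFO, a floral F-box protein, was at the floor on all 10.

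As FBL17 is known from the male germline, 4 pollen germline genes were looked up. Of these, 1 had a probe set that the annotation named with that gene only. MGH3 (HTR10), a sperm cell histone H3, did not exceed 14.3 and was at the floor on 7 of 10 arrays, so this marker of germ cells was at or near the floor at every time. Of 8 photosynthesis markers, 5 were tested, and 2, RCA and PORB, were called higher in the middle than in the early window (limma), where 0.520% of all tested probe sets were. LHCB4.1, PSBY and PSAE-1 were not called (limma, adjusted p 0.0711 to 0.0869). The 5 differences were all positive, with a median of 1.07 against 0.07 over all tested probe sets, of which 58.8% were positive. The summed signal of the 5 was between 299 and 500.2 early, 662 and 803 in the middle and 670 and 787 late, and its part in the FBL17 result was not tested. The log2 ratio of the 3′ to the 5′ actin control probe set, a sign of RNA integrity, ran from 1.57 to 1.96 early, 1.11 to 2.09 in the middle and 1.20 to 1.60 late, so that the windows overlapped. The same ratio for GAPDH ran from 0.21 to 0.33 early, 0.14 to 0.40 in the middle and 0.00158 to 0.11 late. Early and middle thus overlapped, and the late arrays lay below both. From 4 h to 6 h, where FBL17 fell, the actin ratio went from 1.87 to 1.11, its lowest value, and the GAPDH ratio from 0.26 to 0.14. At 8 h, with FBL17 still low, the ratios were 2.09 and 0.40, the highest of the course. Their part in the FBL17 step was not tested.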

How the data were processed

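Total RNA of 10 samples was labelled with biotin, per the labels' protocols, and each was measured on 1 array. The deposited intensity values are MAS5 signals, per the submitters' processing notes, with a software version not given in the sources used here. The authors had scaled them: trimmed means of the deposited arrays were 99.3 to 99.4. Of 22810 probe sets, 64 controls were left out. Probe sets were named through the platform annotation (13513 with 1 gene, 503 with several, 8730 with none listed). Symbols came from a RefSeq table of assembly TAIR10.1 by Entrez ID (13436 matched).

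Signals were rescaled per array (2% trimmed mean set to 100), raised to a floor at the 25th percentile (12.1) where lower, and put on a log2 scale. Probe sets with a mean over the 40th percentile were tested with R 4.3.3 and limma 3.58.1 (eBayes with a mean trend, Benjamini-Hochberg adjustment over 13647, threshold 0.05). All 10 arrays entered 1 fit of 3 windows and 1 spline fit. SE and intervals are those of the limma contrasts. Genes named were FBL17, the 12 most and 6 least like it among those with a symbol, and members of gene lists. The members and lists were chosen with earlier results of these data known. Alternatives were other scalings, floors, filters, moderation, windows and spline terms, and arrays left out. No sequence of FBL17 was used here. The number of arrays limits the precision.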

Additional observations from a re-analysis of the deposited data

How the results depend on the processing

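FBL17 kept the direction of all 3 window differences in each of the 22 alternatives. The middle minus early call was lost without the filter (-1.06, adjusted p = 0.0645), without the 0 h and 2 h arrays (-0.98, 0.0530) and with 6 h moved to the early window (-0.78, 0.242). With single arrays left out the difference ran from -1.10 to -0.99 (limma, adjusted p 0.00362 to 0.0559), and the unadjusted p was at most 0.0122 over all alternatives. The late minus early call was lost with median centring (-0.77, 0.0549), without the filter (-0.62, 0.0855), without a mean trend (-0.62, 0.0686), without the 0 h and 2 h arrays (-0.54, 0.164) and with 6 h moved (-0.35, 0.521), and ran from -0.71 to -0.46 with single arrays left out. Late minus middle was called in 0 of 22 (limma, adjusted p 0.296 to 1) and ran from 0.35 to 0.60 with single arrays left out. It was 0.28 with 12 h moved to the late window (unadjusted p = 0.121) and 0.43 with 6 h moved to the early window (0.147). The fitted range of the time course ran from 1.19 to 1.35 with single arrays left out. Of the 12 genes most like FBL17, 4 to 10 were kept with single arrays left out, 5 without the 0 h and 2 h arrays and 6 by Spearman's correlation. Median centring put the median of all probe sets equal on each array and moved middle minus early to -1.18. The counts behind the adjustment moved far more: in middle minus early 154 probe sets were called, 0 without the filter, the 8 h or the 10 h array (limma, 3287, 2555 and 2386 at an unadjusted p under 0.05) and 1863 without 4 h. In late minus early 554 were called, from 1 without 16 h to 1739 without 4 h, and in the time course 760, from 236 without 12 h to 2901 without 0 h. Median centring changed the higher and lower calls from 71 and 83 to 18 and 83 in middle minus early, and from 309 and 245 to 93 and 300 in late minus early. The cause of these changes was not tested. No paired analysis was possible because each time had 1 array.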
